A study of Homo sapiens with 16 samples.

Results

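The genes described here carry glucose from the cell surface to pyruvate and lactate, or through the non-oxidative and oxidative steps of the pentose phosphate pathway. They were taken from a list of 33 gene symbols that covers glucose and lactate carriers, the glycolytic enzymes with their isoforms, the enzymes that set the level of the bisphosphate activator of phosphofructokinase, the entry of pyruvate into mitochondria, and the pentose phosphate enzymes. A gene was included where a probe set of the array carried its symbol and no other, and where several did, the brightest by its mean of the 16 arrays stood for the gene. That held for 31 of the 33 genes, out of 19775 genes so represented in the series. SLC16A1 and SLC16A3 are not analysed here. All 31 passed the filter on low values, which 13483 genes passed in all, and no group mean of any of the 31 lay below the filter level of 4.88 (log2 intensity).

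Glycolysis splits glucose into pyruvate with a small gain of ATP, and proliferating lymphoid cells run it at a high rate even with oxygen present, releasing much of the carbon as lactate. Phosphofructokinase is the main point of control, and most steps can be catalysed by isoforms encoded by separate genes. The pentose phosphate pathway branches off after the hexokinase step and yields NADPH and the ribose phosphate from which nucleotides are made.

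The samples were 4 established human lines of T-cell acute lymphoblastic leukaemia (T-ALL), CEM, CUTL1, DND41 and Jurkat. Each line received the vehicle DMSO or 1 uM PD-0332991 (palbociclib, an inhibitor of the cyclin-dependent kinases CDK4 and CDK6) and was harvested after 15 h. All groups shared the same medium, RPMI with 10% serum, and the labels name no genetic change made to any line. Each of the 8 groups had 2 arrays, so 16 Affymetrix U133 Plus 2.0 arrays were compared, hybridised with cDNA amplified from 5 ng of total RNA. The labels do not say whether the 2 arrays of a group came from separate cultures, and the p-values therefore measure the spread between arrays, which may be technical. Because each array received the same mass of RNA, levels are relative to total RNA, and a change in RNA per cell would not be seen.

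The deposited intensities had array medians of 28.5 to 31.2, and the 2 arrays of a group correlated at r of 0.9935 to 0.9979 over the genes tested. The T-ALL label was checked against markers. All 10 T-lineage markers stood at or above the filter level in every group, while 4 of 5 myeloid markers, 2 of 3 epithelial markers and 2 of 4 B-lineage markers stood below it in every group. The other 2 B-lineage markers, CD79A and CD79B, and 3 of 5 stroma and endothelium markers, COL1A1, PECAM1 and VWF, stood at or above it in every group. So did the myeloid marker CSF1R and the erythroid marker HBB. The erythroid marker ALAS2 and the epithelial marker EPCAM did so in 2 of 8 groups each. These markers were not compared between treatments, and their part in the results was not tested.

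Averaged over the 4 lines, 16 of the 31 genes changed with PD-0332991 (limma, adjusted p under 0.05), 6 upwards and 10 downwards, and 15 did not pass. The genes that rose were SLC2A3, HK1, HK2, PFKM, PFKFB2 and ALDOC, which act between glucose entry and the aldolase step. The genes that fell were PFKP, ALDOA, TPI1, PGAM1, ENO1, ENO2, LDHA, PDK1, PDHA1 and RPE, of which PFKP acts earlier and RPE in the pentose branch, and the others from the aldolase step downwards. Of all genes tested, 46.6% changed in this comparison, 26.7% upwards and 20.0% downwards, so the number of changed genes was near that of genes in general. The median change of the 31 genes was -0.06 on the log2 scale, against 0.04 for all genes tested. Changes ranged from -0.77 for ENO2 to 0.64 for PFKFB2. When each line's mean difference was taken as a single replicate, 1 gene rose and 3 fell, with 4 values then entering each test, and 18.9% of all genes tested changed (9.35% upwards, 9.53% downwards).

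Within single lines fewer genes passed. In CEM 3 genes rose and 7 fell, where 28.1% of all genes tested changed (16.5% upwards, 11.6% downwards). In CUTL1 3 rose and 3 fell, against a background of 27.2% (14.6% and 12.7%). In DND41 2 rose and 7 fell, against 28.2% (11.1% and 17.1%). In Jurkat 4 rose and 4 fell, against 27.0% (15.6% and 11.4%). The DND41 split is tied to scaling. As deposited, 39.3% of all genes called in DND41 were higher with the drug, but 23.8% were after centring arrays on their medians, 55% after quantile normalization and 51.1% after cyclic loess. Of the genes described here, 1 rose and 9 fell in DND41 under the first of these settings, 3 rose and 5 fell under the second, and 4 rose and 5 fell under the last.

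**Figure D1:**
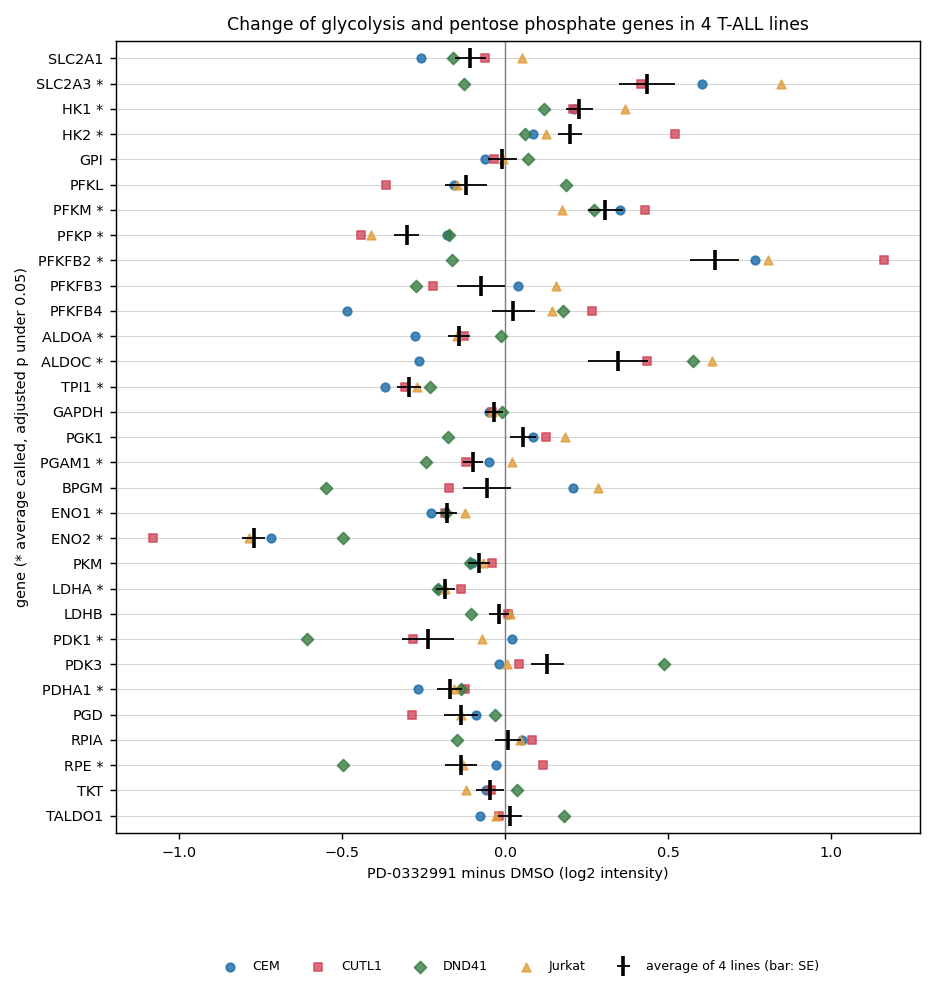
Change with PD-0332991 of each of the 31 genes, as log2 intensity with PD-0332991 minus DMSO, in pathway order from top to bottom. Coloured symbols are the 4 lines, black marks the average with its standard error, and an asterisk marks an adjusted p under 0.05 for the average. ENO2 lies farthest to the left and PFKFB2 farthest to the right, with the DND41 symbol of PFKFB2 apart from the other lines.

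The promoters of a few of these genes show the sequence context that hypoxia-inducible factors and MYC-family proteins are known to read in glycolytic genes. The 250 bases before the RefSeq start (GRCh38.p14) were found for 29 of the 31 genes, and the first listed window of each gene was used. The letters ACGTG, the core of the hypoxia response element, occurred on either strand in 11 of the 29 windows (37.9%) and in 18.7% of 27305 windows of all genes. The longer CACGTG, the E-box, which contains ACGTG on both strands, occurred in 3 of 29 (10.3%) and in 6.49% of all windows. The E2F-type letters TTTNNCGC occurred in 3 of 29 (10.3%) and in 5.93% of all windows, on either strand. A match is a description of these letters and not evidence of binding. The windows of LDHA, of the enolase isoforms that changed to different extents, and of ALDOC, whose level rose, are shown 5′ to 3′ along the gene, with ACGTG and its reverse complement CACGT in capitals.
LDHA (chr11:18394313-18394562, plus strand): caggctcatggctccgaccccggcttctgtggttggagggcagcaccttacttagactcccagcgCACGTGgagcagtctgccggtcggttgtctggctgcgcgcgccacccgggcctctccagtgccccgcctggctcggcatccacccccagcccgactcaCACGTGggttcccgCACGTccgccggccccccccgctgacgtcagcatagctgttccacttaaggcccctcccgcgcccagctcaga
ENO1 (chr1:8878687-8878936, minus strand): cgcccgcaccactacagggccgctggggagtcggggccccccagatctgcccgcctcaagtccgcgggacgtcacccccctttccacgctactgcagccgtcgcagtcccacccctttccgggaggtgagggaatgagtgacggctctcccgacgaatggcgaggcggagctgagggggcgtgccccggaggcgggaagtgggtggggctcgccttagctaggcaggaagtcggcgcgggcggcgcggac
ENO2 (chr12:6914330-6914579, plus strand): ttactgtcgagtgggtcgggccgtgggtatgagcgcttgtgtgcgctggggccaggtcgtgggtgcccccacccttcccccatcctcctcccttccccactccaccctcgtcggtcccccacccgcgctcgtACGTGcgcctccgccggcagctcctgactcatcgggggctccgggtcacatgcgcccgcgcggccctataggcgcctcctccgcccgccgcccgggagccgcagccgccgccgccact
ALDOC (chr17:28576896-28577145, minus strand): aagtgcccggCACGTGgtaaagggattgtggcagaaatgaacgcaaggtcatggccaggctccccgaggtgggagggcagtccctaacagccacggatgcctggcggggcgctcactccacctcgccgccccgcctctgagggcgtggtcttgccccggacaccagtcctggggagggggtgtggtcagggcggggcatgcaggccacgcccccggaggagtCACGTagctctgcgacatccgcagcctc
Counted on both strands, the LDHA window held 5 matches, of which 4 form 2 complete E-boxes. The ALDOC window held 3 matches, including 1 E-box, the ENO2 window held 1 and the ENO1 window 0.

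At the cell surface, the main glucose transporters behaved differently. SLC2A3 encodes GLUT3, a transporter with high affinity for glucose. Its log2 intensity in CEM was 7.47 and 7.07 with DMSO and 7.95 and 7.79 with PD-0332991. In Jurkat it was 7.30 and 7.71 with DMSO and 8.22 and 8.48 with the drug. The CUTL1 arrays read 8.35 and 8.53, then 8.89 and 8.83. The treated arrays were above the DMSO arrays in these 3 lines without overlap. Of these, CEM and Jurkat passed their own tests (limma adjusted p 0.0215 and 0.00346), and CUTL1 did not (0.0954). The CEM call was not kept in every fit that left out a single array. In DND41 the DMSO arrays, at 8.17 and 8.18, lay between the treated arrays at 7.87 and 8.23. The average change was 0.44 (SE 0.09, limma adjusted p 0.00125), a 1.35-fold rise, and all 3 probe sets of SLC2A3 rose. SLC2A1 encodes GLUT1, the widespread basal transporter, and its average difference of -0.11 did not pass (adjusted p 0.0848), although it did without Jurkat (-0.16, adjusted p 0.0339).

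The hexokinases trap glucose as its phosphate, and HK1 and HK2 rose. HK1, the broadly expressed form, changed by 0.23 on average (SE 0.04, limma adjusted p 0.000763), with the largest line difference in Jurkat at 0.37. Jurkat was the only line in which HK1 passed its own test (limma adjusted p 0.00677). HK2, the inducible form, read 9.67 and 9.57 in CUTL1 with DMSO and 10.22 and 10.06 with PD-0332991. Its changes were 0.52 in CUTL1 but 0.09 in CEM, 0.06 in DND41 and 0.13 in Jurkat. The treated arrays of HK2 lay above the DMSO arrays in all 4 lines, yet CUTL1 alone passed its own test (adjusted p 0.000278). Without CUTL1 the average of HK2 was 0.09 and did not pass (adjusted p 0.111). The other 2 probe sets of HK2 differed by 0.02 and 0.01. GPI, the isomerase that follows hexokinase, differed by -0.01 (adjusted p 0.899).

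The phosphofructokinase isoforms moved in opposite directions. This enzyme commits hexose phosphate to glycolysis, and its subunits are named for muscle (PFKM), liver (PFKL) and platelet (PFKP). PFKM rose by 0.31 on average (SE 0.05, limma adjusted p 0.000621). Its arrays read 9.13 and 9.01 in CUTL1 with DMSO and 9.52 and 9.47 with the drug. In CEM they read 7.69 and 7.52, then 8.09 and 7.84. In DND41 they read 9.31 and 9.13, then 9.45 and 9.53, and in Jurkat 5.23 and 5.46, then 5.52 and 5.52. The treated arrays of PFKM were the higher ones in every line, over a wide range of starting levels. The rise passed in CEM (limma adjusted p 0.0318) and CUTL1 (0.0123), but not in DND41 (0.0843) or Jurkat (0.276). With a single array left out, the calls in CEM and CUTL1 were each lost in 2 of 16 fits. In Jurkat the arrays were not far above the filter level of 4.88. PFKM has a single probe set, marked _s_at.

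PFKP fell by 0.30 on the log2 scale (SE 0.04, adjusted p 5.22e-05, 1.23-fold lower). It read 10.67 and 10.64 in CUTL1 with DMSO and 10.20 and 10.22 with PD-0332991, and in Jurkat 11.13 and 11.01, then 10.65 and 10.66. The changes in CEM and DND41 were smaller, at -0.18 and -0.17, and did not pass (limma adjusted p 0.112 and 0.12). The treated arrays of PFKP were below the DMSO arrays in all 4 lines. A second probe set of PFKP was too dim to test, and with the mean of both the difference was -0.11 (adjusted p 0.0765). PFKL differed by -0.12 and did not pass with the probe set used (adjusted p 0.15), although it did without DND41 (-0.22, adjusted p 0.0273), while its other probe set fell by 0.25 on the log2 scale (adjusted p 9.32e-05).

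The PFKFB genes encode the bifunctional enzymes that make and remove the bisphosphate activator of phosphofructokinase. PFKFB2 had the largest rise of the 31 genes, 0.64 on average (SE 0.07, limma adjusted p 2.31e-05), or 1.56-fold. In CUTL1 it read 7.28 and 7.31 with DMSO and 8.41 and 8.50 with PD-0332991. In CEM it read 5.19 and 5.04, then 5.99 and 5.77, and in Jurkat 6.68 and 7.05, then 7.71 and 7.63. The arrays of the treatments were apart in these lines, with rises of 1.16, 0.76 and 0.81. In DND41 the DMSO arrays at 5.89 and 5.80 and the treated arrays at 5.45 and 5.92 overlapped, and the difference was -0.16 (adjusted p 0.445).

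The change of PFKFB2 differed between lines (F test, limma adjusted p 0.00948). DND41 was below CUTL1 by 1.32 (adjusted p 0.00479), below Jurkat by 0.97 (0.0195) and below CEM by 0.93 (0.0272). These p-values were adjusted over genes within each pair of lines, and not over the pairs. The same holds for every change compared between a pair of lines. Only DMSO levels compared between lines were adjusted over genes and pairs together. Of the other probe sets of PFKFB2, 1 rose by 0.38 (adjusted p 0.000371) and 1 differed by 0.01 (adjusted p 0.964). PFKFB3 and PFKFB4, the isoforms best known for induction by hypoxia, differed by -0.08 and 0.03 on average and did not pass. In CEM, however, PFKFB4 fell by 0.49 on the log2 scale (adjusted p 0.0165), from 6.29 and 6.30 to 5.71 and 5.91. That call was lost without either CEM DMSO array or CEM PD-0332991 replicate 1 (adjusted p 0.0687 to 0.126).

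**Figure D2:**
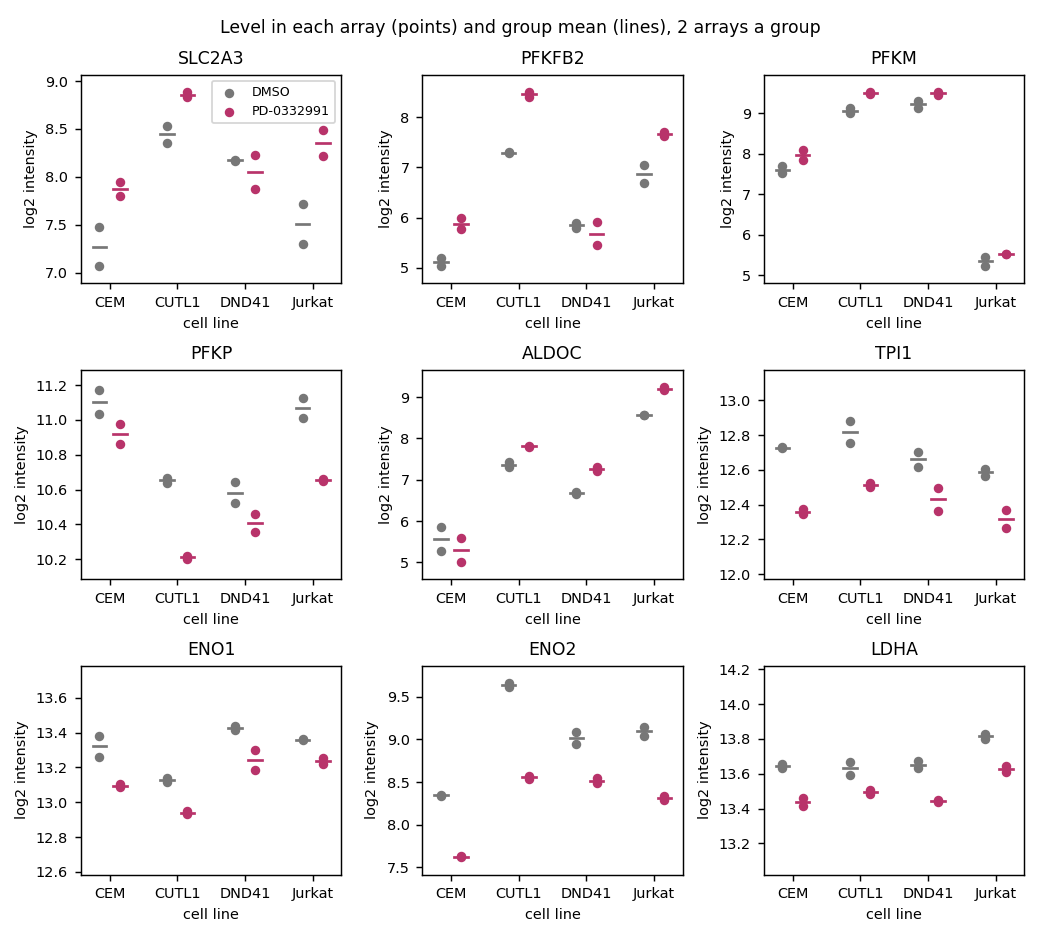
Log2 intensity of 9 genes in each of the 16 arrays, by line, with grey points for DMSO, purple points for PD-0332991 and short lines for the group means. The vertical axis has its own range in each panel. The treatments are apart in all 4 lines for PFKM, PFKP, TPI1, ENO1, ENO2 and LDHA, and overlap in DND41 for SLC2A3 and PFKFB2 and in CEM for ALDOC.

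Aldolase cleaves the hexose bisphosphate into the triose phosphates. ALDOA, the main form outside liver and brain, fell by 0.14 on the log2 scale (SE 0.03, limma adjusted p 0.00493), and all 3 of its probe sets fell. The largest difference was in CEM, at -0.28, and without CEM the average of -0.10 did not pass (adjusted p 0.0721). ALDOC, the form known from brain, rose by 0.35 (SE 0.09, adjusted p 0.00821). It read 8.56 and 8.56 in Jurkat with DMSO and 9.23 and 9.16 with the drug, and in DND41 6.66 and 6.69, then 7.30 and 7.21. In CUTL1 it read 7.44 and 7.30, then 7.81 and 7.80, so the treated arrays were higher in 3 lines. The rise passed in Jurkat (limma adjusted p 0.0236) and DND41 (0.0355), but not in CUTL1 (0.102). In CEM, where ALDOC was lowest, the arrays overlapped at 5.86 and 5.28 with DMSO and 5.02 and 5.59 with PD-0332991. The average no longer passed without DND41 (0.27, adjusted p 0.0565) or without Jurkat (0.25, adjusted p 0.0802).

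TPI1, which interconverts the triose phosphates, fell in every line. Its changes were -0.37 in CEM, -0.31 in CUTL1, -0.23 in DND41 and -0.27 in Jurkat, each past its own test (adjusted p 0.00327, 0.0089, 0.0366 and 0.0185). The arrays read 12.73 and 12.73 in CEM with DMSO and 12.38 and 12.34 with PD-0332991, and in CUTL1 12.88 and 12.76, then 12.50 and 12.53. In DND41 they read 12.70 and 12.62, then 12.36 and 12.50, and in Jurkat 12.56 and 12.61, then 12.26 and 12.37. The treatments did not overlap in any line. The average was -0.29 (SE 0.04, adjusted p 4.20e-05), a 1.23-fold fall shared by all 3 probe sets. With a single array left out, the average passed in 16 of 16 fits, while the tests within CUTL1, DND41 and Jurkat could miss the threshold (adjusted p up to 0.215 in DND41).

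Of the next enzymes, GAPDH, PGK1 and BPGM did not pass and PGAM1 did. GAPDH, which makes the first high-energy intermediate of the payoff phase, differed by -0.03, and its levels of 14.21 to 14.41 were close to the array maxima of 14.59 to 14.67. PGK1, which makes ATP from that intermediate, differed by 0.05, and without DND41 by 0.13, which passed (adjusted p 0.0346). PGAM1, the mutase, fell by 0.10 on the log2 scale (SE 0.03, limma adjusted p 0.022). DND41 had the largest change, -0.24, and without DND41 (-0.05, adjusted p 0.299) or CUTL1 (-0.09, 0.0624) the average of PGAM1 did not pass. BPGM, whose product tunes haemoglobin in red cells, fell in DND41 by 0.55 on the log2 scale (adjusted p 0.0173) and differed by 0.21 in CEM and 0.29 in Jurkat, which did not pass. The BPGM call in DND41 was lost without either DND41 DMSO array and without DND41 PD-0332991 replicate 1, where the value was -0.35 (adjusted p 0.153).

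The enolases gave the largest fall of the group. ENO2, the form known from neurons, fell by 0.77 on the log2 scale on average (SE 0.03, limma adjusted p 7.01e-09), or 1.71-fold. In CUTL1 it went from 9.66 and 9.61 to 8.54 and 8.57, and in CEM from 8.35 and 8.34 to 7.63 and 7.62. In Jurkat it went from 9.15 and 9.04 to 8.33 and 8.28, and in DND41 from 9.09 and 8.94 to 8.49 and 8.55. No arrays overlapped, and each line passed its own test. The fall was 2.12-fold in CUTL1 and 1.41-fold in DND41, a difference between these lines of 0.58 on the log2 scale (adjusted p 0.00621), and the F test over lines passed (adjusted p 0.0158).

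ENO1, the widespread enolase, fell by 0.18 on the log2 scale (SE 0.03, limma adjusted p 0.000757), with line differences from -0.23 in CEM to -0.12 in Jurkat. It read 13.38 and 13.26 in CEM with DMSO and 13.09 and 13.10 with PD-0332991, and in Jurkat 13.36 and 13.37, then 13.25 and 13.22. In CUTL1 it read 13.14 and 13.12, then 12.95 and 12.93, and in DND41 13.44 and 13.41, then 13.18 and 13.30. The treated arrays of ENO1 were below the DMSO arrays in every line, and all 3 probe sets tested, each marked _s_at, fell. CEM alone passed its own test (limma adjusted p 0.0229), while CUTL1 (0.0561), DND41 (0.0578) and Jurkat (0.202) did not. The CEM call was lost in 3 of the 16 fits that left out a single array. PKM, pyruvate kinase, differed by -0.08 (adjusted p 0.0754). Its treated arrays were the lower ones in all 4 lines, but by little, and the probe set was not assigned to either splice form.

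Lactate dehydrogenase turns pyruvate into lactate and back. LDHA, the form associated with lactate production, fell by 0.18 on the log2 scale (SE 0.03, limma adjusted p 0.000292). It read 13.63 and 13.66 in CEM with DMSO and 13.46 and 13.42 with the drug, and in CUTL1 13.67 and 13.59, then 13.51 and 13.48. In DND41 it read 13.67 and 13.63, then 13.44 and 13.45, and in Jurkat 13.83 and 13.80, then 13.65 and 13.61. The changes, -0.21, -0.14, -0.21 and -0.18, were not shown to differ between lines (F test, adjusted p 0.869), and none of the arrays overlapped. The change of LDHA passed its own test in CEM (limma adjusted p 0.0224), DND41 (0.0223) and Jurkat (0.0365), but not in CUTL1 (0.113). None of these 3 calls was kept in every fit that left out a single array. LDHB, its counterpart, differed by -0.02 (adjusted p 0.654).

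At the entry to mitochondria, pyruvate dehydrogenase makes acetyl-CoA, and the PDK kinases switch it off. PDHA1, its catalytic alpha subunit, fell by 0.17 on the log2 scale (SE 0.04, limma adjusted p 0.00321), but its probe set without an _s_at mark differed by -0.06 (adjusted p 0.271). PDK1 fell by 0.24 (SE 0.08, adjusted p 0.0302), mostly in DND41, where it went from 8.60 and 8.54 to 7.96 and 7.97. Without DND41 the average of PDK1 was -0.11 (adjusted p 0.366), without CUTL1 it was -0.22 (0.0784), and it missed the threshold in 8 of the 16 fits that left out a single array. PDK3 rose in DND41 alone among the line tests, by 0.49 (adjusted p 0.00479), from 9.28 and 9.27 to 9.89 and 9.64. A different probe set of PDK3 fell on average by 0.33 on the log2 scale (adjusted p 0.00253), and with the mean of its 5 probe sets the DND41 value was -0.081, so no direction is given for PDK3 as a gene.

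Across the whole group, the arrays of the treatments did not overlap in any of the 4 lines for 9 genes. HK2 and PFKM were higher with PD-0332991, and PFKP, TPI1, ENO1, ENO2, PKM, LDHA and PDHA1 were lower. Of all genes tested, 10.7% were apart in this way upwards and 10.7% downwards.

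Of the 5 pentose phosphate enzymes among the 31 genes, RPE passed on average. PGD, the NADPH-producing dehydrogenase of the oxidative arm, differed by -0.13 (SE 0.05, limma adjusted p 0.0509), and without DND41 by -0.17, which passed (adjusted p 0.0359). Of the non-oxidative enzymes, RPIA, TKT and TALDO1 differed by 0.01, -0.05 and 0.01 and did not pass. RPE, the epimerase, fell by 0.14 on the log2 scale (SE 0.05, adjusted p 0.0408). In DND41 it went from 9.96 and 9.93 to 9.33 and 9.57, while its change in the other lines lay between -0.13 and 0.12, and without DND41 the average was -0.01 (adjusted p 0.863). The average of RPE missed the threshold in 13 of the 16 fits that left out a single array, and without Jurkat (-0.14, adjusted p 0.0756). For TKT, transketolase, a dimmer probe set fell by 0.38 on the log2 scale (adjusted p 0.000234), against -0.05 for the one used.

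Isoforms of the same step were set side by side as a log2 ratio within each array, which shows unequal change and not which isoform is the more abundant. Of 13 listed pairs 12 could be tested, by an exact two-sided permutation of treatment labels within lines, with the p-value adjusted over the 12 pairs, and 9 passed. The smallest p this design allows is 0.00154. The ratio of PFKM to PFKP rose by 0.61 (SD 0.18 over the 4 lines, adjusted exact permutation p 0.00617), that of ENO1 to ENO2 by 0.59 (SD 0.25, 0.00617), and that of LDHA to LDHB fell by 0.16 (SD 0.05, 0.00617). Each of these had the same sign in 4 of 4 lines and the smallest p possible. The ratio of ALDOA to ALDOC fell by 0.49 (SD 0.33, adjusted exact permutation p 0.00926) and that of SLC2A1 to SLC2A3 by 0.54 (SD 0.38, 0.00926). That of PFKL to PFKM fell by 0.43 (SD 0.30, 0.0132). The sign was the same in 4 lines for each, but the sizes were uneven. ALDOA to ALDOC was -0.01 in CEM, and in DND41 SLC2A1 to SLC2A3 was -0.03 and PFKL to PFKM -0.08. Without CEM (0.0694) or CUTL1 (0.0617) the PFKL to PFKM ratio did not pass.

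PFKFB2 rose against PFKFB3 by 0.72 (adjusted exact permutation p 0.00926), in 4 of 4 lines, with DND41 lowest at 0.11. Against PFKFB4 it rose by 0.62 (0.0278), in 3 of 4 lines, with DND41 at -0.34, and it did not pass without CEM (0.133), CUTL1 (0.133) or Jurkat (0.0833). PFKL rose against PFKP by 0.18 (0.0329), but with the mean of all probe sets of each gene this ratio was -0.077, so its direction is not settled. The pairs HK1 and HK2 (0.03, adjusted exact permutation p 0.752), PDK1 and PDK3 (-0.36, 0.0778) and PFKFB3 and PFKFB4 (-0.10, 0.635) did not pass.

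**Figure D3:**
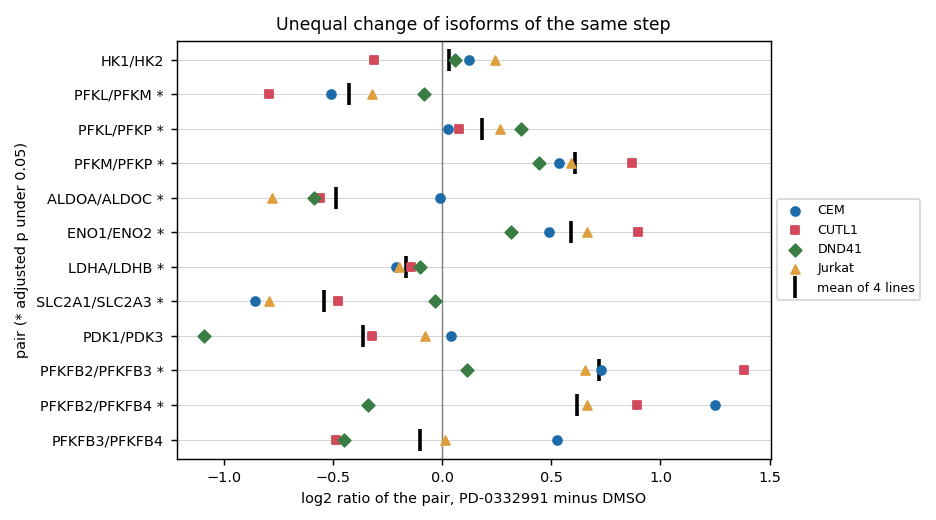
Change of the log2 ratio between isoforms of a step, PD-0332991 minus DMSO, for 12 pairs. Coloured symbols are the 4 lines, black marks the mean of the lines, and an asterisk marks an adjusted exact permutation p under 0.05. For PFKM to PFKP and ENO1 to ENO2 all lines lie to the right of 0, and for LDHA to LDHB all lie slightly to the left.

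Whether a change differed between lines was tested directly. The F test passed for 5 of the 31 genes, where 12.6% of all genes tested passed. These were HK2, with its rise in CUTL1 above those in CEM (by 0.43, adjusted p 0.0366) and DND41 (by 0.46, adjusted p 0.0248), PFKFB2, PFKFB4, ENO2 and RPE. The values for PFKFB4 and RPE, adjusted p 0.0499 and 0.0491, were at the threshold and were lost in 13 of the 16 fits that left out a single array. HK2 was lost in 8 of these fits (adjusted p up to 0.131), ENO2 in 2 (up to 0.059) and PFKFB2 in 0. For the other 26 genes a difference between lines was not shown, which does not mean that the lines responded alike.

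Without drug, the lines differed in the level of most of these genes. The median gap between the highest and the lowest line was 0.52 on the log2 scale, against 0.55 for all genes tested. The F test over the 4 DMSO groups passed for 25 of the 31 genes, with 71.2% of all genes tested passing. TPI1, GAPDH, PGK1, LDHB, PDK1 and PDK3 were the genes that did not. PFKM had the widest range, 14.7-fold, with mean log2 intensities of 9.22 in DND41, 9.07 in CUTL1, 7.61 in CEM and 5.34 in Jurkat. DND41 and CUTL1 were not distinguished (limma adjusted p 0.277), CUTL1 was above CEM (4.89e-07) and CEM above Jurkat (9.87e-09). ALDOC spanned 7.97-fold in another order, from 8.56 in Jurkat through 7.37 in CUTL1 and 6.68 in DND41 to 5.57 in CEM, and each neighbour differed from the next (adjusted p 0.000204, 0.00838 and 0.000353).

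PFKFB2 spanned 4.53-fold, with CUTL1 above Jurkat, Jurkat above DND41 and DND41 above CEM, all neighbours apart (limma adjusted p 0.0339, 0.000146 and 0.00164). The lowest groups of PFKM (5.34 in Jurkat), ALDOC (5.57 in CEM) and PFKFB2 (5.11 in CEM) were not far above the filter level of 4.88. The fold ranges of these genes are therefore less certain. ENO2 spanned 2.45-fold, highest in CUTL1 and lowest in CEM, while Jurkat and DND41 between them were not distinguished (adjusted p 0.393). PKM spanned 2.34-fold, from CUTL1 through Jurkat and CEM to DND41, each apart from the next. HK2 was lowest in CEM, 2.32-fold below DND41, and HK1 was lowest in Jurkat, 2.02-fold below CEM, so the hexokinase isoforms were low in different lines. SLC2A3 spanned 2.26-fold, from CUTL1 to CEM. Among the 25 genes, Jurkat was the highest line for 8, CUTL1 for 7, DND41 for 7 and CEM for 3, and CEM was the lowest for 10. The highest line was told apart from the next (adjusted p under 0.05) for 5 of the 8 in Jurkat, 5 of the 7 in CUTL1, 1 of the 7 in DND41 and 0 of the 3 in CEM. Some of these calls were close to the threshold, with limma adjusted p of 0.0495 for TALDO1, 0.0489 for HK2, 0.0419 for PGAM1 and 0.0407 for LDHA. The F test of LDHA in DMSO (adjusted p 0.0417) was lost in 13 of the 16 fits that left out a single array. These tallies were not made over all genes tested, so they are not read as particular to these genes.

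**Figure D4:**
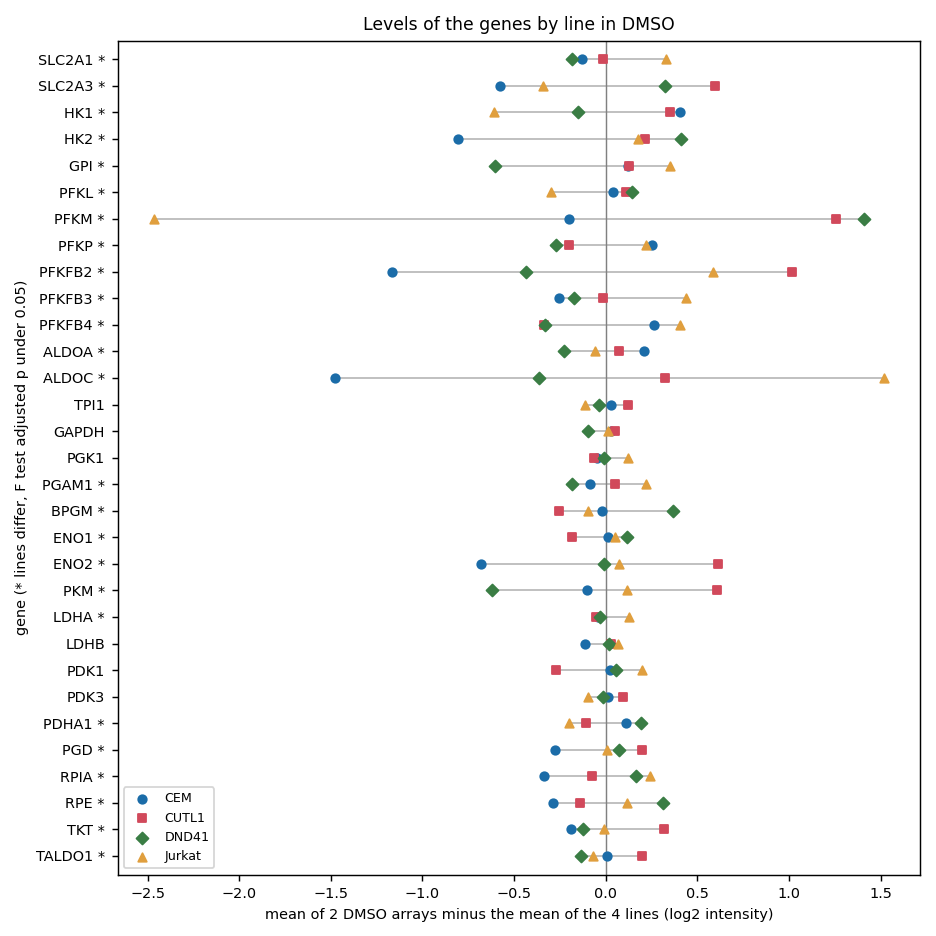
Level of each of the 31 genes in DMSO by line, as the mean of 2 arrays minus the mean of the 4 lines (log2 intensity), with grey bars joining the lowest and highest line. An asterisk marks genes whose lines differed in the F test. PFKM in Jurkat lies farthest from the mean of the lines, and ALDOC and PFKFB2 follow in spread.

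The neighbouring steps were followed with a list of 61 further genes, of which 45 were tested. Of these 45, 18 rose and 11 fell with PD-0332991 on average, 16 did not pass, and the median change was 0.04. Over all genes tested, 26.7% rose and 20.0% fell, with a median of 0.04. The 15 with the smallest p-values are described. At glucose uptake, TXNIP, an arrestin-like protein that restrains glucose transport, rose by 0.69 (SE 0.04, limma adjusted p 2.06e-08). It read 6.53 and 6.65 in CUTL1 with DMSO and 7.65 and 7.67 with the drug, in Jurkat 6.45 and 6.55, then 7.28 and 7.29, and it rose in all 4 lines. MLXIP, which encodes MondoA, a glucose-sensing factor known to activate TXNIP, rose by 0.47. ARRDC4, a relative of TXNIP, passed on average, but both of its CUTL1 groups and CEM with DMSO lay below the filter level, so no size is given for those lines. In Jurkat ARRDC4 rose by 0.84 (adjusted p 0.000162), and in DND41 it differed by 0.25 (adjusted p 0.105). The transporter gene SLC2A6 rose by 0.76 and passed in all 4 lines, and HKDC1, a hexokinase relative, rose by 0.74 on average, with its DND41 DMSO group below the filter level.

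In the pentose branch, H6PD, which starts the pathway inside the endoplasmic reticulum, rose by 0.46 and passed in 4 lines. PGLS, the lactonase, rose by 0.31, and RBKS, ribokinase, by 0.30. The synthetases that turn ribose phosphate into the precursor of nucleotides fell. PRPS2 fell by 0.89 on the log2 scale (SE 0.05, limma adjusted p 2.29e-08), in CUTL1 from 10.09 and 10.08 to 8.63 and 8.75 and in CEM from 10.32 and 10.25 to 9.66 and 9.50. PRPS1 fell by 0.42 (adjusted p 2.96e-06), and both passed in all 4 lines. TIGAR, a phosphatase that lowers the activator of phosphofructokinase, rose by 0.33 on average, from 0.51 in CEM to a difference of -0.04 in DND41.

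Downstream, SLC16A7, a carrier of lactate and pyruvate, fell by 0.79 on the log2 scale (SE 0.09, limma adjusted p 2.43e-05). In DND41 it went from 8.10 and 7.99 to 5.98 and 6.56, a change of -1.77, against -0.34 in Jurkat and -0.36 in CEM, which did not pass. GPD2, the mitochondrial glycerol phosphate dehydrogenase, fell by 0.82 (SE 0.11, adjusted p 6.17e-05), in DND41 by 1.23 and in CUTL1 by 1.10, while CEM at -0.26 did not pass, and the treated Jurkat group lay below the filter level. DLAT, the acetyl-transferring subunit of pyruvate dehydrogenase, fell by 0.25. EPAS1, a hypoxia-inducible factor subunit, rose by 0.49, with Jurkat at 1.09 going from 7.83 and 7.79 to 8.90 and 8.89.

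**Figure D5:**
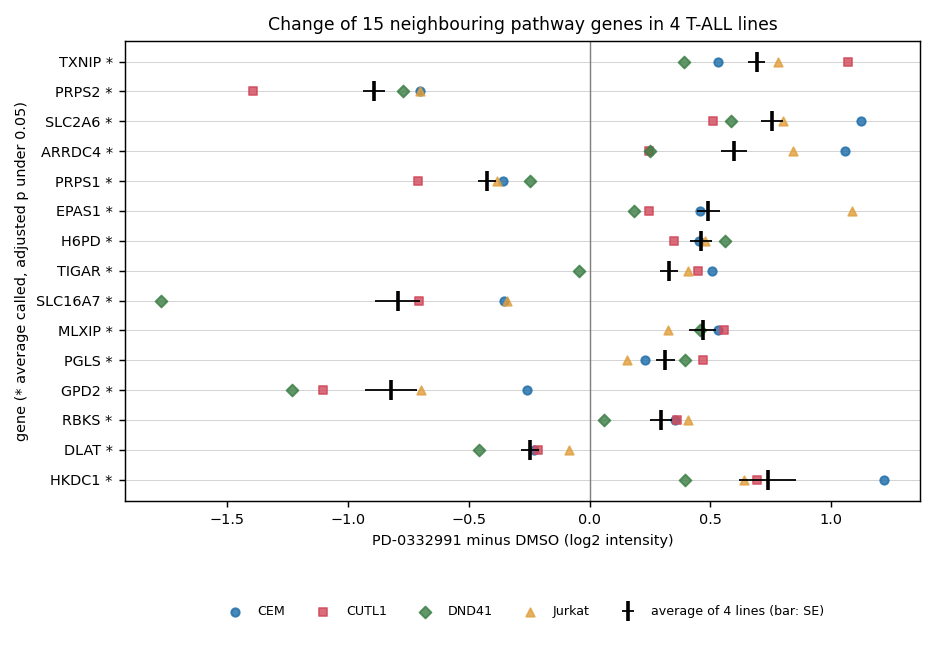
Change with PD-0332991 of the 15 neighbouring genes named, as log2 intensity with PD-0332991 minus DMSO. Coloured symbols are the 4 lines and black marks the average with its standard error. ARRDC4 values for CEM and CUTL1, HKDC1 for DND41 and GPD2 for Jurkat include groups below the filter level. All 15 averages passed (asterisks), and the DND41 symbol of SLC16A7 lies farthest to the left at -1.77.

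Probe sets of a gene were compared where there were several. The 31 genes had 76 probe sets with a single symbol, 20 genes had more than 1, and 69 probe sets could be tested. PDK3 was the only gene with a probe set that passed in the direction opposite to the one used. Many glycolytic genes have processed pseudogenes, and probe sets marked _x_at or _s_at may read related transcripts. Without those, 18 of the 31 genes could be measured.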

How the data were processed

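RNA was hybridised to 16 arrays, 2 for each of 4 lines with DMSO or PD-0332991. The deposited values are linear intensity values per probe set, made by the authors with RMA per the submitters' processing notes. The sources used here do not give its version or a genome build. Log2 was taken without a pseudocount and without further scaling, although the plan had assumed deposited log2 values. Of 54675 probe sets, the platform annotation gives 41097 a single symbol, 1801 several and 11777 none. A gene entered where a line mean reached the median of all values (29.5), and 13483 genes did. All 8 groups were fitted with limma 3.58.1 in R 4.3.3 (lmFit and eBayes), two-sided, with Benjamini-Hochberg adjustment over the genes tested and a threshold of 0.05. Isoform ratios were tested by exact permutation within lines. Of the other pathway genes, the 15 with the smallest adjusted p among those called in the average effect or the F test were named. The fits were tested on simulated data. Scaling, probe set choice, filter, prior, replicate block, left-out arrays and left-out lines were varied. The number of arrays limits the precision. The genes and lists were chosen with earlier results of these data known. Promoters are from RefSeq (GRCh38.p14). Python 3.11.15 and matplotlib 3.10.9 drew the figures.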

Additional observations from a re-analysis of the deposited data

Results flagged for a closer look

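The results below are those in which the change with PD-0332991 differed between the 4 lines, by limma's F test with the p-value adjusted over all genes tested. The change of PFKFB2 differed (adjusted p 0.00948), with rises in CEM, CUTL1 and Jurkat and a difference of -0.16 in DND41. For ENO2 (adjusted p 0.0158) all lines fell, CUTL1 by 1.08 and DND41 by 0.50 on the log2 scale. For HK2 (adjusted p 0.0338) CUTL1 rose by 0.52, against 0.09 in CEM, 0.06 in DND41 and 0.13 in Jurkat. This F test was not kept in every fit that left out a single array. The other 2 probe sets of HK2 differed by 0.02 and 0.01 on average. PFKFB4 (adjusted p 0.0499) fell in CEM by 0.49 and differed by 0.14 to 0.27 in the other lines. RPE (adjusted p 0.0491) changed by -0.50 in DND41.

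Among the neighbouring genes, EPAS1 differed between lines (adjusted p 0.00373), with 1.09 in Jurkat against 0.18 in DND41. TXNIP (adjusted p 0.00527) rose by 1.07 in CUTL1 and by 0.39 in DND41. ARRDC4 (adjusted p 0.00887) rose by 0.84 in Jurkat and differed by 0.25 in DND41. Its CUTL1 groups and CEM with DMSO lay below the filter level, so the size of this difference is uncertain. PRPS2 (adjusted p 0.0121) fell by 1.39 in CUTL1 and by 0.70 in CEM. SLC16A7 (adjusted p 0.0121) changed by -1.77 in DND41 and by -0.34 in Jurkat. TIGAR (adjusted p 0.0186) changed by 0.51 in CEM and by -0.04 in DND41. SLC2A6 (adjusted p 0.0302) rose by 1.12 in CEM and by 0.51 in CUTL1. With single arrays left out, the F test was lost in 7 of 16 fits for SLC2A6 (adjusted p up to 0.0853; without either CEM or either DND41 DMSO array, CUTL1 DMSO replicate 1, or CEM or CUTL1 PD-0332991 replicate 2), in 3 for TIGAR (up to 0.0804; without either DND41 DMSO array or DND41 PD-0332991 replicate 1), in 1 for PRPS2 (without CUTL1 PD-0332991 replicate 1, 0.0629) and in 1 for SLC16A7 (without DND41 DMSO replicate 1, 0.0593).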

How the results depend on the processing

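Of 629 average effects under other settings, 570 kept their side of the threshold, 38 lost and 21 gained a call. These pool the 31 genes with the 15 neighbouring genes named. The 15 were picked by small p-values in these data, which favours their calls being kept. No called effect turned sign (0), and 30 uncalled ones did, counting left-out arrays. TPI1 and ENO2 passed under all 14 other settings and all 16 left-out arrays. Without _x_at, _s_at and AFFX probe sets, 18 of the 31 genes were left. Of these, 6 fell on average, 1 rose and 3 fell in CEM, and 2 fell in Jurkat. Of all genes under that setting, 1890 fell on average, 1640 rose and 1008 fell in CEM, and 968 fell in Jurkat. Under the main setting these numbers were 2694, 2218, 1568 and 1535. The change differed between lines for 3 of the 18 genes and the DMSO level for 16. Of the isoform pairs 2 passed, and 6 neighbouring genes fell. No probe set of PFKM, LDHA or LDHB was left, so pairs with these genes could not be tested. The only ENO1 probe set left was too dim to test (mean log2 intensity 4.03), so its ratio to ENO2 is not read here. The number of pairs passing is therefore not comparable with the 9 of 12 under the main setting. With each line's mean difference as a replicate, 1 rose and 3 fell, and 7 and 4 of the neighbouring genes, against 9.35% and 9.53% of all genes tested. Genes that fell in CUTL1 numbered 5 with cyclic loess, 6 with a stricter filter (level 7.18, 8700 genes) and 7 with an intensity trend and robust prior. Of all genes tested, 1795, 1687 and 1819 fell in CUTL1 under these settings, against 1707 under the main one. Genes that rose in DND41 numbered 4 with cyclic loess and 1 with centred arrays or the mean of all probe sets. Line differences passed for 2 genes without a filter and 11 with the trend and robust prior. How many of all genes passed that F test was not counted under these settings. Values that turned sign were PDK3 in DND41 (-0.081, adjusted p 0.455) and the PFKL to PFKP ratio (-0.077, adjusted exact permutation p 0.219) with the mean of all probe sets, and TKT in DND41 without _x_at, _s_at and AFFX probe sets (-0.61, adjusted p 0.00303, not called before). The cause was not tested beyond the number of genes and values entering. Counts under other settings, left-out arrays included, are not read as particular to these genes.

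With the replicate number as a block, 5 genes fell in CUTL1, 1 rose in DND41, 2 fell in Jurkat and 2 differed between lines. Same-numbered arrays deviated together weakly (correlations 0.08 in CEM, 0.19 in CUTL1, -0.11 in DND41 and 0.10 in Jurkat), so the numbers were not taken to pair the arrays.

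With single arrays left out, 6 to 7 genes rose and 8 to 11 fell on average, and 15 to 18 and 9 to 11 of the neighbouring genes. In CEM 1 to 3 rose and 2 to 8 fell, in CUTL1 2 to 4 and 2 to 5, in DND41 1 to 2 and 2 to 9, and in Jurkat 2 to 4 and 2 to 4. Line differences passed for 1 to 10, DMSO differences for 22 to 26 and isoform pairs for 7 to 10. The average call of RPE was kept only without CUTL1 DMSO replicate 1, DND41 PD-0332991 replicate 2 or Jurkat DMSO replicate 1 (otherwise -0.14 to -0.10), and that of PDK1 was lost without CEM, CUTL1 or Jurkat DMSO replicate 2, DND41 DMSO replicate 1, CEM or Jurkat PD-0332991 replicate 2, and CUTL1 or DND41 PD-0332991 replicate 1 (-0.23 to -0.18).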
